A study of Homo sapiens with 4 samples.

Results

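The 10 genes described here are ATF4, DDIT3, TRIB3, PPP1R15A, DDIT4, SESN2, ASNS, PSAT1, PHGDH and CHAC1, the transcription factor ATF4 of the integrated stress response and genes commonly listed as its targets. They were taken by gene symbol from the 36601 genes of the count tables, by a rule that uses no measured value, although earlier results of these data were known when the list was made. All 10 were found, and 7 of them had a mean level of at least 10 CPM (UMIs of a gene scaled to a library total of 1000000) over the 4 libraries, the floor that 8507 of all genes passed. TRIB3, CHAC1 and ASNS were under that floor.

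The cells were BEAS-2B, a human bronchial epithelial line, made immortal in culture, that serves as a model of normal lung epithelium. Each group is 1 single-cell library: an unirradiated control, and cells that received 10 mGy, 100 mGy or 1 Gy of Cs-137 gamma rays, all from the same line and cultured briefly after exposure before capture. Cells were captured in droplets, where transcripts of 1 cell share a barcode and every captured transcript carries its own molecular identifier (UMI), and the values are the numbers of UMIs for each gene in each barcode. A dose cannot be told apart from its library, because each dose has 1 library and no replicate, so no test between doses was made and all intervals are 95% intervals of counting error only.

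In the integrated stress response, kinases that sense unfolded protein, lack of amino acids, double-stranded RNA or lack of heme phosphorylate the translation factor eIF2alpha. Most protein synthesis then slows, while the ATF4 mRNA is translated more, and the ATF4 protein pairs with C/EBP factors to switch on genes of amino acid supply, growth arrest and, when stress lasts, cell death. ATF4 activity is therefore set largely at translation, which a count of its mRNA does not measure. Several of the target genes, such as SESN2 and PPP1R15A, are also known to respond to DNA damage.

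The element bound by ATF4 with a C/EBP partner has the core TGATGNAA, and the promoters of the 10 genes were searched for it on both strands. RefSeq windows (GRCh38.p14) that run from 250 bases before to 50 bases after each annotated start held the motif for 2 of 10 genes, ASNS and CHAC1, and for 4.46% of all 27305 genes in that table. The 250 bases before the start are shown for both, with the match in capitals, and for DDIT3, the gene called higher at both low doses, whose windows held no match. The ASNS window is chr7:97872409-97872658 on the minus strand with the match 68 bases before the start, the CHAC1 window is chr15:40953221-40953470 on the plus strand with the match, in the reverse orientation, 209 bases before it, and the DDIT3 window is chr12:57520515-57520764 on the minus strand.
ASNS: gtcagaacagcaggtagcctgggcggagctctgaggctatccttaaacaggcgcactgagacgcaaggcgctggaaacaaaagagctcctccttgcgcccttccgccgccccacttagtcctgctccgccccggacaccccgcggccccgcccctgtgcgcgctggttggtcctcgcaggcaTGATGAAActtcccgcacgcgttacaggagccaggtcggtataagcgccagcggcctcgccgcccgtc
CHAC1: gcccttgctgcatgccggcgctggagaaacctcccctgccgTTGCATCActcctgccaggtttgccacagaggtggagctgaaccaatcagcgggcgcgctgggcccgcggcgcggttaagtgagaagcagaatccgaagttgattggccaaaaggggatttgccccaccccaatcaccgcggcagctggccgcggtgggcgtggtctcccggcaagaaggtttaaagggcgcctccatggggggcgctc
DDIT3: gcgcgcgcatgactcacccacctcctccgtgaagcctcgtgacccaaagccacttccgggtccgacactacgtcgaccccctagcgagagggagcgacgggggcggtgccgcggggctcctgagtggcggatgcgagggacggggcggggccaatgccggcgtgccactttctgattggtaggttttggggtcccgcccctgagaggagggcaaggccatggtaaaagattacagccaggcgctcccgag
The absence of these letters from a window says nothing on binding by ATF4, and a match alone does not show binding. The 2 genes with a match were also those with the fewest UMIs of the 10, as described below.

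The libraries held 11111 to 21514 barcodes and 211752280 to 285806026 UMIs. The median UMI count of a barcode was 19771, 13757, 12417 and 14277 in the control, 10 mGy, 100 mGy and 1 Gy libraries. In the same order, 19.6%, 41.4%, 27.4% and 25.4% of the barcodes had a UMI count under the library median divided by 3. These low-UMI barcodes held 2.16% to 5.40% of the UMIs. Of the 10 epithelial line markers, KRT8, KRT18, KRT7 and VIM were at 10 CPM or more, while KRT5, KRT14, CDH1 and TP63, which mark basal or polarized epithelium, were under 1 CPM in the mean of the 4 libraries. The summed level was 3405 to 3858 CPM for these markers. VIM alone made up most of that sum, at 2344 to 2702 CPM, so the sum by itself does not show epithelial identity. KRT19 was at 1.72 to 2.41 CPM and EPCAM at 0.902 to 1.17 CPM. The summed level was 8.56 to 11.7 CPM for 8 leukocyte markers, of which 0 reached 10 CPM in the mean. It was 0.528 to 0.777 CPM for 6 endothelial markers. Of 7 fibroblast markers, which summed to 328 to 430 CPM, THY1 and COL1A1 were at 10 CPM or more and PDGFRA, DCN, LUM and COL3A1 under 1. Pairs of libraries shared 76 to 134 barcode sequences, 0.386% to 0.864% of a library.

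Of the 7 genes above the floor, 1 (DDIT3) was at least 1.2-fold higher and 5 (ATF4, PPP1R15A, DDIT4, SESN2 and PSAT1) at least 1.2-fold lower than the control at 10 mGy, and the same genes were called in the same direction at 100 mGy. DDIT3 had a mean of 10.8 CPM and was above 10 CPM at 10 and 100 mGy only (15.8 and 10.9 CPM). It thus passed the floor through the libraries in which it was high. With a floor of 1 CPM it was also called higher at both low doses, against 15.2% and 12.6% of all genes. The background was large at these doses. Among the 8507 genes, 15.4% were at least 1.2-fold higher and 53% lower at 10 mGy, and 14.0% were higher and 58.9% lower at 100 mGy. At 1 Gy, 0 of the 7 genes were called in either direction, against 1.28% of all genes higher and 0.846% lower. Over all genes the log2 ratio had a median of -0.30, -0.38 and 0.02 at 10 mGy, 100 mGy and 1 Gy, beside -0.47, -0.57 and 0.16 for the 7 genes, and 3, 3 and 4 of the 7 lay above the median of all genes. With scaling by the median ratio of genes in place of the total, the higher share of all calls moved from 22.6% to 52.9% at 10 mGy, from 19.2% to 52.3% at 100 mGy and from 60.2% to 29.3% at 1 Gy, and the genes called lower were ATF4 and SESN2 at 10 mGy and ATF4, SESN2 and PPP1R15A at 100 mGy, against 27.3% and 29.0% of all genes.

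**Figure D1:**
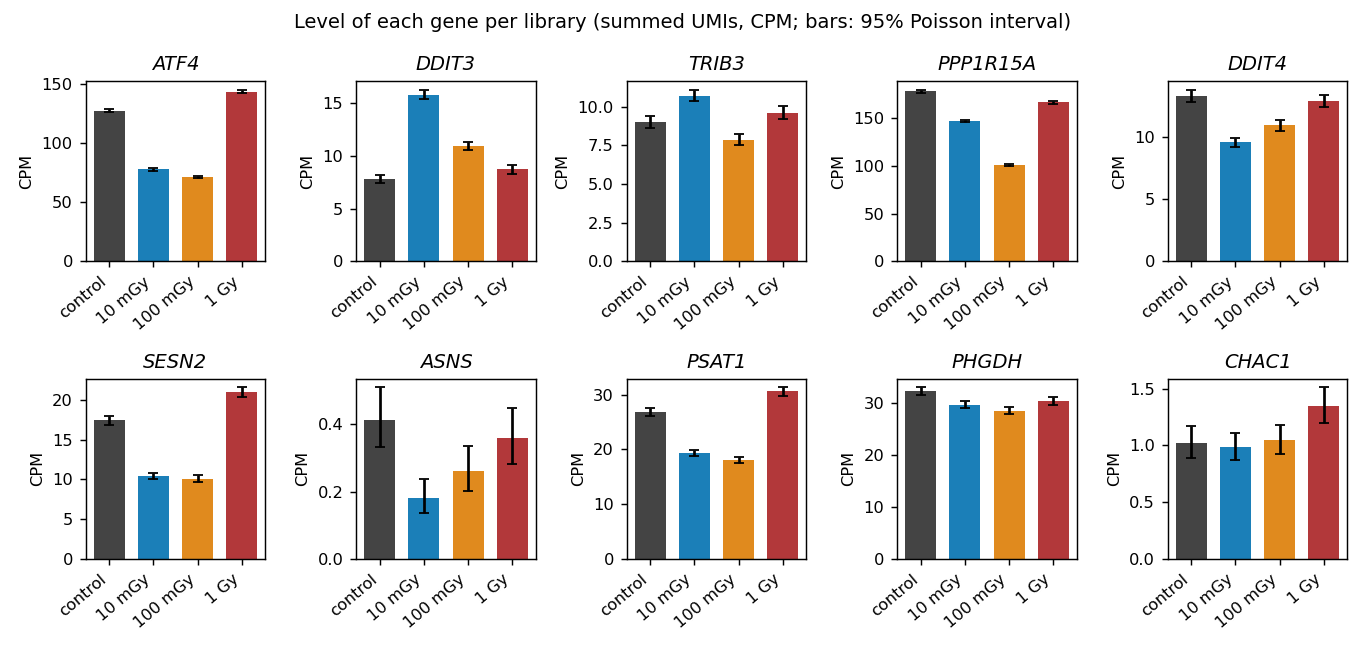
Level of each of the 10 genes in the 4 libraries, as summed UMIs in CPM on an axis of its own that starts at 0, with the exact 95% Poisson interval of counting error. DDIT3 is highest at 10 mGy (15.8 CPM), while ATF4, SESN2 and PSAT1 are lower at 10 and 100 mGy than in the control and at 1 Gy.

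ATF4, the transcription factor at the centre of the response, was counted at 127 CPM in unirradiated cells, 77.7 CPM at 10 mGy, 71.2 CPM at 100 mGy and 143 CPM at 1 Gy. The level at both low doses was thus below the control, and that at 1 Gy above it, and each neighbouring pair in this order was separated beyond counting error. In UMIs per barcode without scaling, ATF4 at 1 Gy was below the control, with a log2 ratio of -0.32, beside a median of -0.47 for all genes. Relative to the control, ATF4 was at 0.610 (0.599 to 0.620) at 10 mGy, 0.559 (0.548 to 0.569) at 100 mGy and 1.13 (1.11 to 1.14) at 1 Gy. After division by the median ratio of all genes these values were 0.752, 0.729 and 1.11, and ATF4 was above 16.0% of all genes at 10 mGy and 16.2% at 100 mGy.

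DDIT3, which encodes the transcription factor CHOP, a promoter of cell death under lasting stress, showed another order. It was counted at 7.81 CPM in the control, 15.8 CPM at 10 mGy, 10.9 CPM at 100 mGy and 8.71 CPM at 1 Gy. The control was the lowest library and 10 mGy the highest, and no neighbouring pair overlapped within counting error. Relative to the control it was at 2.02 (1.91 to 2.14) at 10 mGy, above that of 99.7% of all genes, then 1.40 (1.32 to 1.49) at 100 mGy and 1.12 (1.04 to 1.19) at 1 Gy. In UMIs per barcode without scaling, the log2 ratio at 100 mGy was -0.16 in place of 0.48, beside a median of -1.03 for all genes.

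In the annotation of GENCODE 29 (GRCh38), DDIT3 lies at chr12:57516588-57521737 on the minus strand. It overlaps AC022506.1 and MIR616 on the same strand and MARS and MBD6 on the other strand. Whether strand was used in counting is not given in the sources used here. AC022506.1 was at 0 CPM in each library. MARS, a methionyl-tRNA synthetase, was at 30.0, 26.9, 28.6 and 32.2 CPM in the control, 10 mGy, 100 mGy and 1 Gy libraries, and MBD6 at 12.3, 13.9, 12.6 and 15.6 CPM. At 10 mGy MBD6 was thus above the control and MARS below it, and the part of overlapping reads in the DDIT3 count was not tested. By CPM, ATF4 was thus lower and DDIT3, a known target of ATF4, higher than the control at both low doses. Without scaling this held at 10 mGy only, but unscaled values shift all genes. At 100 mGy the unscaled log2 ratio was -1.48 for ATF4 and -0.16 for DDIT3, beside a median of -1.03 for all genes.

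The next 4 genes act as brakes in the response. PPP1R15A (GADD34), which recruits the phosphatase that reverses eIF2alpha phosphorylation, was at 178 CPM in the control, 147 CPM at 10 mGy, 101 CPM at 100 mGy and 166 CPM at 1 Gy. Relative to the control it was at 0.826 (0.814 to 0.837) at 10 mGy, just past the threshold and close to the median of all genes (log2 ratio 0.024 with median ratio scaling), and 0.566 (0.557 to 0.576) at 100 mGy. The 2 low doses therefore differed for this gene more than for ATF4.

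SESN2, a sestrin that restrains the growth kinase mTORC1 and limits oxidative damage, was at 17.5 CPM in the control, 10.4 CPM at 10 mGy, 10.1 CPM at 100 mGy and 21.0 CPM at 1 Gy. Both low doses lay below the control and could not be separated from each other beyond counting error. Its ratio was 0.596 (0.568 to 0.626) and 0.579 (0.550 to 0.610) at the low doses. At 1 Gy its log2 ratio was 0.26, with an interval of the ratio from 1.15 to 1.25. This was higher than for 98.7% of all genes but just under the threshold, which it passed when the low-UMI barcodes were left out. In UMIs per barcode without scaling the log2 ratio was -0.23, beside a median of -0.47 for all genes.

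DDIT4 (REDD1), another inhibitor of mTORC1, was at 13.3 CPM in the control, 9.55 CPM at 10 mGy, 10.9 CPM at 100 mGy and 12.9 CPM at 1 Gy. The control and 1 Gy overlapped within counting error. Its ratio at 10 mGy was 0.720 (0.682 to 0.759) and that at 100 mGy 0.821 (0.779 to 0.866), and with median ratio scaling the log2 ratio at 100 mGy changed sign, to 0.10. DDIT4 was not called lower at either low dose with cells thinned to 5000 UMIs. At 100 mGy the call was also lost without barcodes over 2.5 times the median UMI count. The same held there with ribosomal protein and mitochondrially encoded genes left out of the total. An antisense gene, DDIT4-AS1, overlaps it and was at 0.176 to 0.855 CPM. TRIB3, a pseudokinase that binds ATF4 and restrains it, was at 9.01, 10.7, 7.86 and 9.59 CPM in the control, 10 mGy, 100 mGy and 1 Gy libraries, and its 3 ratios, 1.19, 0.872 and 1.06, all stayed within 1.2-fold.

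**Figure D2:**
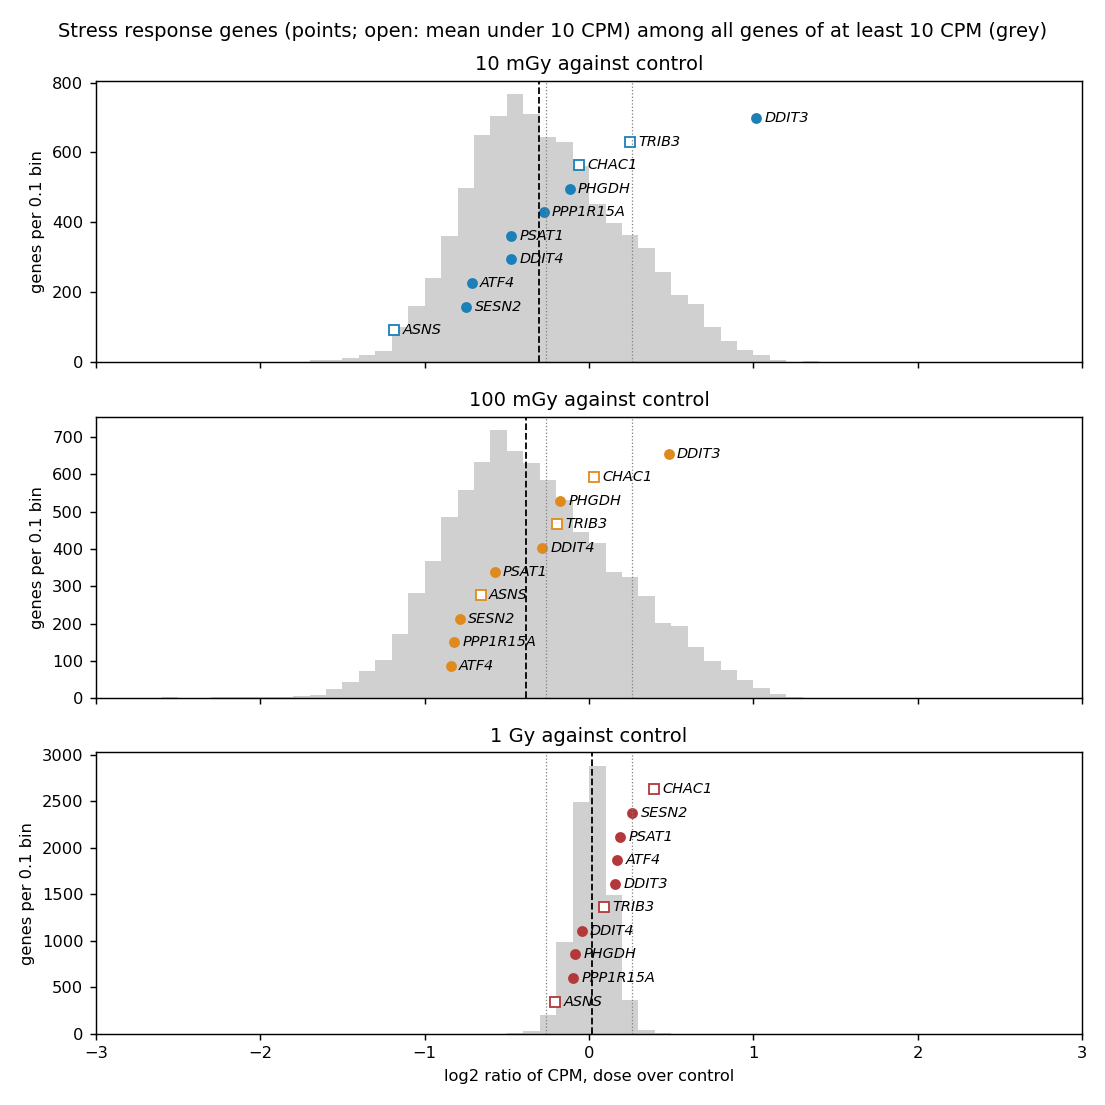
Log2 ratio of CPM to the control for the 10 genes (points, open for a mean under 10 CPM, height without meaning) over the histogram of the 8507 genes of at least 10 CPM, by dose, with the median of all genes dashed and the 1.2-fold limits dotted. Most genes lie below 0 at 10 and 100 mGy (medians -0.30 and -0.38), DDIT3 lies at the right of the distribution at 10 mGy (1.02), and at 1 Gy the median is 0.02, with CHAC1 (0.39) farthest from 0 among the 10 genes.

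The last 4 genes serve amino acid and glutathione metabolism. PSAT1, the aminotransferase of serine synthesis, was at 26.9 CPM in the control, 19.3 CPM at 10 mGy, 18.0 CPM at 100 mGy and 30.6 CPM at 1 Gy. Its order was the same as that of ATF4 and SESN2, with 1 Gy highest and 100 mGy lowest. Its ratios were 0.720 (0.694 to 0.747), 0.672 (0.646 to 0.699) and 1.14 (1.10 to 1.18). The last became a log2 ratio of -0.30 in UMIs per barcode without scaling, beside a median of -0.47 for all genes. PHGDH, which catalyses the first step of the same pathway, varied least of the 10 genes, at 32.2, 29.7, 28.5 and 30.4 CPM, and was within 1.2-fold of the control at each dose (ratios 0.921, 0.885 and 0.944). Relative to the median of all genes, PHGDH was higher than the control at both low doses, at 1.14 and 1.15.

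ASNS, the asparagine synthetase, whose promoter window held a match to the motif, was nearly absent, with 88 UMIs in the control library (0.414 CPM), 52 at 10 mGy (0.182 CPM), 64 at 100 mGy (0.262 CPM) and 76 at 1 Gy (0.359 CPM). No neighbouring libraries in the order of its levels could be separated. The ratio at 10 mGy was 0.440 with a wide interval (0.306 to 0.627). ASNS overlaps AC079781.5 on the same strand, which was at 1.75 to 2.34 CPM, and how reads that match both were counted is not given in the sources used here.

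CHAC1, which degrades glutathione, was at 1.02, 0.983, 1.05 and 1.35 CPM, or 218, 281, 256 and 285 UMIs, in the control, 10 mGy, 100 mGy and 1 Gy libraries. The first 3 libraries were not separated beyond counting error. At 1 Gy the ratio was 1.31 (1.10 to 1.57), the largest of the 10 genes at that dose. In UMIs per barcode without scaling the log2 ratio was -0.095, beside a median of -0.47 for all genes above the floor.

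Both low doses were below both other libraries in 6 of the 7 genes above the floor, and in 67.6% of all genes above it. DDIT3 was the only one of the 10 with both low doses above both other libraries, which held for 20.7% of the genes above the floor. The share of UMIs from ribosomal protein genes was 13.9% in the control and 14.0% at 1 Gy against 19.9% and 21.7% at 10 and 100 mGy. With these and the mitochondrially encoded genes left out of the total, the log2 ratios at 10 and 100 mGy were -0.63 and -0.72 for ATF4 and 1.10 and 0.60 for DDIT3, 4 of the 7 genes were lower at each low dose, and 46.4% and 50.2% of all genes were lower.

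The ratio at the low doses also followed gene length. For the 8500 genes with a length in GENCODE 29, the median log2 ratio went from 0.34 at both low doses in the shortest of 10 equal bins of exonic length (131 to 2158 bases) to -0.68 at 10 mGy and -0.80 at 100 mGy in the longest bin, and stayed between -0.02 and 0.03 at 1 Gy. DDIT3, with 1307 exonic bases, was in the shortest bin. At 10 mGy it was above 97.6% of that bin, and at 100 mGy above 64.5%, so its position at 100 mGy was near the middle of short genes.

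ATF4 (2514 bases) was above 3.76% and 3.53% of the genes of its bin at 10 and 100 mGy, and SESN2 (3453 bases) above 3.07% and 3.66%. Both were thus among the lower genes of like length at both low doses. PSAT1 was above 9.40% and 8.34% of its bin, and DDIT4 above 5.89% and 12.4%. PPP1R15A went from 31.1% at 10 mGy to 2.71% at 100 mGy. PHGDH, with 9217 bases, was above 85.6% and 86.1% of its bin by its ratio to the control. Exonic length here is the union of all exons annotated for a gene, which can exceed the length of any 1 transcript. The annotated PHGDH locus starts at chr1:119648411, well before its promoter window at chr1:119711684. Its bin thus depends on which transcripts are counted, and its place among genes of like transcript length was not tested. The comparison by length was chosen after the ratios had been seen, and the part of length in them was not tested.

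**Figure D3:**
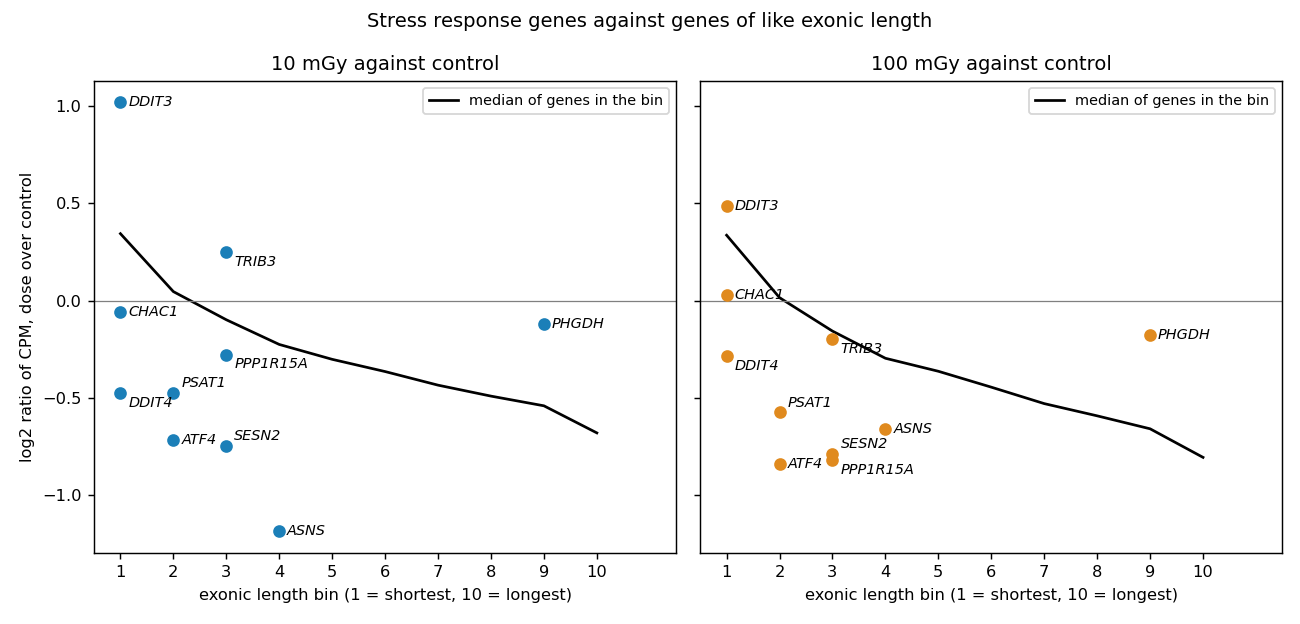
Log2 ratio of CPM to the control at 10 mGy and 100 mGy for the 10 genes (points) against the bin of exonic length, 1 being the shortest of 10, with the median of the genes of at least 10 CPM in each bin as a line. The median falls from 0.34 to -0.68 at 10 mGy and to -0.80 at 100 mGy, with DDIT3 above the line at 10 mGy. ATF4, SESN2, PSAT1 and DDIT4 are below it in both panels. PHGDH is above it in both, in a bin that rests on the union of all its annotated exons.

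A summed level does not tell fewer positive cells from less RNA per cell. The share of cells with a UMI was taken at equal depth, after each cell that was not low-UMI had been thinned to 5000 UMIs, and with so few UMIs per cell it follows the mean level and does not tell them apart either. ATF4 was detected in 45.1% (44.1% to 46.1%) of 8937 control cells, 32.2% (31.4% to 33.0%) of 12561 cells at 10 mGy, 29.0% (28.2% to 29.7%) of 14271 cells at 100 mGy and 49.7% (48.8% to 50.7%) of 11530 cells at 1 Gy. Without thinning, over every barcode, these shares were 76.2%, 48.9%, 48.0% and 69.3%.

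DDIT3 was detected in 3.99% (3.60% to 4.42%) of the thinned cells in the control, 7.36% (6.91% to 7.83%) at 10 mGy, 5.46% (5.09% to 5.84%) at 100 mGy and 4.22% (3.86% to 4.61%) at 1 Gy, or 12.7%, 16.6%, 11.3% and 10.3% of all barcodes without thinning. The control and 1 Gy overlapped, and 10 mGy stood above all others. In the low-UMI barcodes, DDIT3 was at 10.00, 15.6, 10.1 and 8.83 CPM in the same order of libraries, from 46, 241, 61 and 50 UMIs. Thus 10 mGy was highest there as well, while the control was about level with 100 mGy. These barcodes belong to the same libraries and are no independent support. No second cell type that lacks these genes was in the samples, so the share that free RNA would give could not be measured.

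PPP1R15A was detected in 57.4%, 49.6%, 38.2% and 54.7% of thinned cells of the control, 10 mGy, 100 mGy and 1 Gy libraries (80.8%, 59.8%, 55.2% and 70.1% of all barcodes without thinning), and SESN2 in 8.09%, 4.54%, 4.74% and 9.68% (25.2%, 11.8%, 10.9% and 22.0%). For SESN2 the interval at 1 Gy, 9.15% to 10.2%, was above that of the control, 7.53% to 8.67%. ASNS was detected in 0.0911% to 0.224% and CHAC1 in 0.454% to 0.694% of thinned cells. The share of cells with 0 of the 10 genes was 13.7%, 21.2%, 28.8% and 13.6% in the control, 10 mGy, 100 mGy and 1 Gy libraries, and cells with 5 or more of the 10 were between 0.196% and 0.616%.

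**Figure D4:**
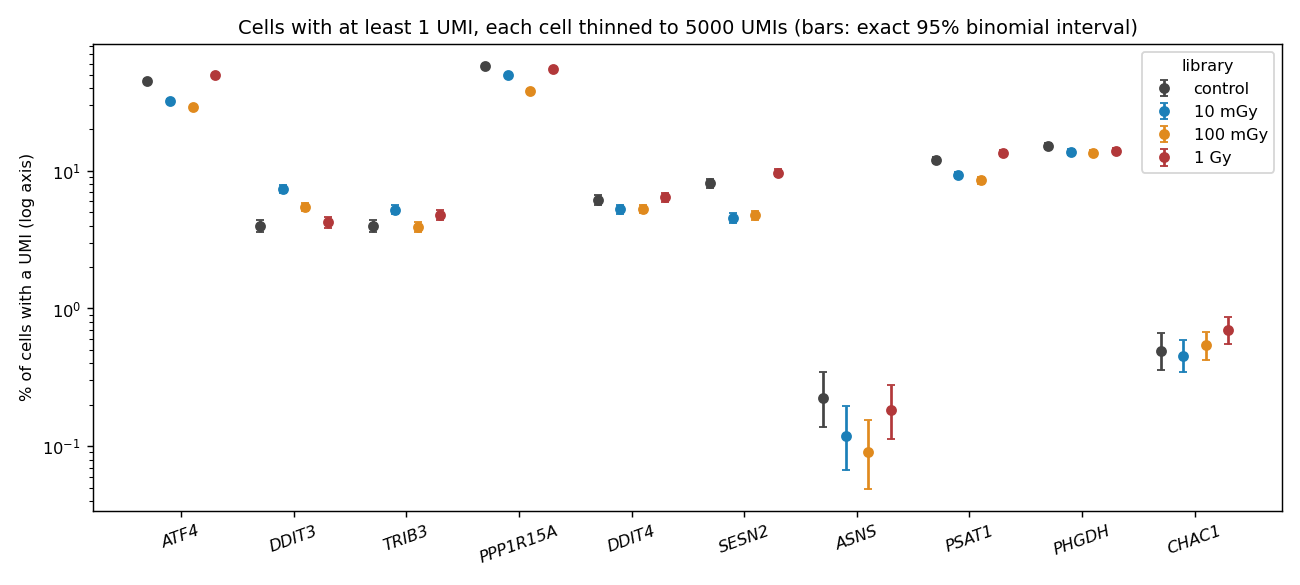
Share of cells with at least 1 UMI of each gene, on a log axis, after thinning every cell to 5000 UMIs, with exact 95% binomial intervals. ATF4 and PPP1R15A were detected in 29.0% to 57.4% of cells, DDIT3 was highest at 10 mGy (7.36%), and ASNS stayed under 0.3% in each library.

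The observed correlations between cells were low for every pair of the 10 genes. Pearson's r of ln(1 + UMIs) over the thinned cells was under 0.1 for all 45 pairs in all 4 libraries, from -0.023 to 0.039, with medians of 0.005, 0.006, 0.008 and 0.011 from the control to 1 Gy. The value of 0.1 does not tell the 10 genes from others, since 0 of the 11190 genes detected in at least 1% of thinned cells of every library reached a mean r of 0.1 with any of the 10, and counts as sparse as these hold r near 0. Below that value most pairs were positive, with 30, 33, 35 and 37 of the 45 above 0 in the control, 10 mGy, 100 mGy and 1 Gy libraries. For the 8 members detected in at least 1% of cells, the mean r with a summed score of the other 7 was 0.003 to 0.036, beside a median of 0.001 for all 11190 genes. DDIT3 (0.036) was in place 9 of the 11190, SESN2 (0.029) in place 15, ATF4 (0.021) in place 31, PHGDH (0.020) in place 39, PSAT1 (0.018) in place 57 and TRIB3 (0.018) in place 59, while PPP1R15A (0.013) was in place 245 and DDIT4 (0.003) in place 4179. These places are a description, without a test. The highest mean r of a pair was 0.021, for DDIT3 and SESN2 (0.018 to 0.028 over the libraries), and PPP1R15A and DDIT4 had an r below 0 in 4 of 4 libraries. With the counting variance subtracted, a mean r was taken for the pairs that had a value in 4 of 4 libraries. It ran from -0.18 for PPP1R15A and DDIT4 to 0.80 for PSAT1 and PHGDH and 0.83 for TRIB3 and PHGDH. For DDIT3 and SESN2 it was 0.36. Single libraries gave 0.16 to 1.68 for TRIB3 and PHGDH and 0.36 to 1.56 for PSAT1 and PHGDH. A correlation cannot exceed 1, so these means do not measure co-variation, and no order of pairs is read from them. These estimates divide by small excess variances, as the variance over the mean was 1.00 to 1.05 for TRIB3 and 1.01 to 1.12 for PHGDH. The points of each r are cells of 1 library, which share its preparation and, after thinning, the same depth.

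In cells with 2 or more ATF4 UMIs against cells with 0, no target was higher beyond counting error in more than 1 of 4 libraries. The ratio was 0.961 to 1.43 for DDIT3, 0.906 to 1.28 for TRIB3, 0.986 to 1.29 for SESN2 and 0.973 to 1.32 for PSAT1. Cells with 2 or more ATF4 UMIs held 50 to 83 UMIs of DDIT3 and 31 to 103 of TRIB3, so intervals are wide. Against all detected genes the ratio was above 28.9% to 99.3% for DDIT3 and 15.5% to 97.6% for TRIB3. It was above 42.8% to 97.6% for SESN2 and 36.0% to 96.0% for PSAT1. Of the 7 other detected members, 3, 6, 6 and 5 were above the median ratio of all genes from the control to 1 Gy. Cells with a DDIT3 UMI had 1.08 to 1.15 times the PPP1R15A level of cells without, with an interval above 1 in 3 of 4 libraries, 1.26 to 1.48 times the SESN2 level, with such an interval in 1 of 4, 0.923 to 1.48 times the DDIT4 level, in 2 of 4, and 1.00 to 1.71 times the TRIB3 level, in 1 of 4, the 10 mGy library. The width of an interval depends on the UMIs, 338 to 713 for PPP1R15A and 39 to 64 for SESN2 in the cells with DDIT3. Among all detected genes the ratio was above 70.2% to 86.3% for PPP1R15A and 91.3% to 99.2% for SESN2. For DDIT4 it was above 26.0% to 98.5%, and for TRIB3 above 49.5% to 99.8%. These splits were chosen after the correlations had been seen.

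The 3 genes most like DDIT3 by mean r were CDKN1A (0.069), the p53 target that halts the cell cycle, AREG (0.062), an EGF receptor ligand, and MDM2 (0.045), the ligase that degrades p53. SESN2 had the same 3, at 0.051, 0.046 and 0.042. For PPP1R15A they were the histone genes HIST1H4C (0.078), HIST1H1B (0.070) and HIST1H1C (0.065), for DDIT4 they were ID1 (0.054), RPL6 (0.040) and RPS14 (0.039), and for ATF4 they were HIST1H4C (0.034), KRT17 (0.030) and H3F3B (0.024). Those of PHGDH were PCNA (0.029), NEAT1 (0.026) and FTL (0.026), those of TRIB3 were PSTPIP2 (0.021), FTH1 (0.019) and PLK2 (0.018), and those of PSAT1 were FUBP1, QARS and PDE8A (0.018 to 0.019). ASNS had CREBRF, GABPB1 and CEBPG (0.019 to 0.020), and CHAC1 had DDIT4, ROGDI and CREB3 (0.019 to 0.021). Some of these changed sign between libraries, with r from -0.008 to 0.039 for ASNS and CREBRF. The range was -0.005 to 0.029 for ASNS and CEBPG and -0.0007 to 0.034 for PSAT1 and FUBP1. ASNS was detected in only 13 to 21 thinned cells of a library. Each set of 3 is the highest of 11190 genes, and whether such low values exceed counting noise was not tested. Histone genes are near copies of each other, and FTH1, FTL, RPL6, RPS14 and H3F3B have processed pseudogenes, so their counts are uncertain where reads match more than 1 copy.

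The genes of highest mean r with the summed score of the 8 members detected in at least 1% of cells were CDKN1A (0.068), AREG (0.047), MDM2 (0.046), GADD45A (0.042), GAS5 (0.038), SQSTM1 (0.037), SNHG12 (0.036), ATF3 (0.036), NEAT1 (0.034) and BTG2 (0.034), over the 4 libraries. Of the lists, 12 of 12 aminoacyl-tRNA synthetases (median r 0.013), 16 of 16 other ATF4 targets and stress factors (0.011), 17 of 18 p53 targets (0.012) and 12 of 13 immediate early genes (0.010) were above the median of all genes (0.001), as were 8 of 9 amino acid transporters, 6 of 8 genes of serine and one-carbon metabolism, 11 of 15 S phase genes, 10 of 16 genes of the ATF6 and XBP1 branches, 7 of 15 genes of eIF2 and its regulators and 2 of 15 G2/M genes. The score had an r of -0.036 to -0.009 with the mitochondrially encoded share of UMIs, 0.007 to 0.040 with the log of the total UMIs before thinning, 0.008 to 0.026 with the S phase genes and -0.019 to -0.011 with the G2/M genes.

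Cells were also split by CDKN1A, a split likewise chosen after the correlations had been seen. Cells with a CDKN1A UMI, 8.72% to 12.3% of each library, had 12.0 against 7.90 CPM of DDIT3 in the control, 21.0 against 15.2 CPM at 10 mGy, 20.1 against 11.0 CPM at 100 mGy and 14.1 against 8.33 CPM at 1 Gy. The ratio for DDIT3 was 1.39 to 1.83, with an interval above 1 in 4 of 4 libraries, which restates its correlation with CDKN1A in the same cells as a fold and adds no support to it. DDIT4 (1.03 to 1.64 times), SESN2 (1.06 to 1.29 times) and TRIB3 (1.08 to 1.44 times) had an interval above 1 in 2 of 4 libraries each. ATF4 (0.974 to 1.10 times) and PPP1R15A (0.974 to 1.03 times) had it in 0 of 4. Among all detected genes the ratio was above 66.7% to 99.8% for DDIT4, 69.5% to 97.2% for SESN2 and 80.0% to 98.7% for TRIB3. It was above 35.4% to 79.5% for ATF4 and 36.8% to 58.8% for PPP1R15A. The share of all genes with such an interval was not counted.

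**Figure D5:**
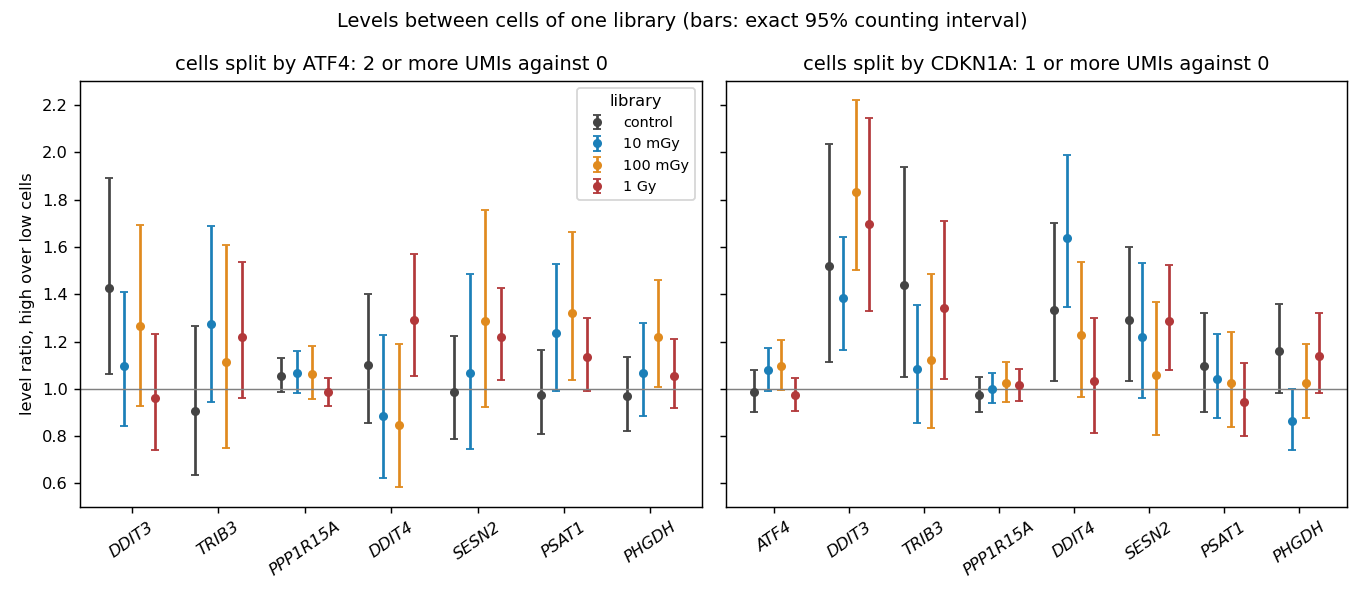
Ratio of the level of each gene in cells with 2 or more ATF4 UMIs to cells with 0 (left), and in cells with a CDKN1A UMI to cells without (right), per library at 5000 UMIs per cell, with exact 95% counting intervals. Of the genes plotted, DDIT3 is the only one whose interval lies above 1 in all 4 libraries of a split, that by CDKN1A, while ATF4 and PPP1R15A stay near 1 there.

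The machinery upstream of ATF4 was described by 15 genes of the eIF2alpha kinases, eIF2, eIF2B and the phosphatase, of which 14 passed the floor. At both low doses 0 were higher and 7 of the 14 lower, near the background of 53% and 58.9%, with median log2 ratios of -0.26 and -0.20, and at 1 Gy 2 were higher, EIF2B4 (log2 ratio 0.29) and EIF2S2, against 1.28% of all genes. EIF2S2 lay at the threshold, with a ratio of 1.2007 at 1 Gy, which was called, and 1.1977 at 10 mGy, which was not. The extremes were EIF2S2 (0.26) and PPP1R15B (-1.05), the constitutive partner of the phosphatase, at 10 mGy, EIF2B2 (0.11) and PPP1R15B (-1.24) at 100 mGy, and IMPACT (-0.12) as the lowest at 1 Gy. Of the 4 kinases, EIF2AK1 was at 0.681, 0.629 and 0.984 times the control at 10 mGy, 100 mGy and 1 Gy, EIF2AK2 at 0.698, 0.654 and 0.934, EIF2AK4 (GCN2) at 0.984, 0.981 and 1.04, and EIF2AK3 (PERK), under the floor, at 0.632, 0.507 and 0.947.

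Among other groups downstream of ATF4, the medians of the 4 lists lay between -0.38 and -0.21 at 10 mGy and between -0.55 and -0.25 at 100 mGy on the log2 scale, beside -0.30 and -0.38 for all genes. The 12 aminoacyl-tRNA synthetases had 0 higher and 5 lower at each low dose, from SARS (-0.01) to TARS (-0.59) at 10 mGy and from EPRS (0.05) to TARS (-0.63) at 100 mGy, with 0 called at 1 Gy, where SARS (0.26) was highest and EPRS (-0.10) lowest. Of 8 amino acid transporters above the floor, 4 were lower at 10 mGy and 7 at 100 mGy, and 0 higher, against 53% and 58.9% of all genes lower and 15.4% and 14.0% higher. SLC3A2 was the highest at both (0.24 and 0.05), with SLC7A1 (-0.78) lowest at 10 mGy and SLC7A11 (-1.25), the cystine importer, lowest at 100 mGy. At 1 Gy they ran from SLC1A4 (0.23) to SLC3A2 (-0.14), with 0 called, against 1.28% of all genes higher and 0.846% lower.

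Of 6 genes of serine, one-carbon and proline metabolism above the floor, 4 were lower and 0 higher at each low dose, between PYCR1 (0.03) and MTHFD1L (-0.47) at 10 mGy and between PYCR1 (0.17) and GPT2 (-0.40) at 100 mGy, and 0 were called at 1 Gy, where ALDH18A1 (0.15) and MTHFD1L (-0.06) were the extremes. Of 15 other ATF4 targets and stress factors, 1 was higher and 9 lower at 10 mGy, and 0 higher and 9 lower at 100 mGy. For both lists the lower counts were near the 53% and 58.9% of all genes. The shares of all genes higher were 15.4% and 14.0% at the low doses, and at 1 Gy 1.28% were higher and 0.846% lower. VEGFA, the angiogenic growth factor, was lowest at both (-1.19 and -1.39), with SQSTM1 (0.42) highest at 10 mGy and EIF4EBP1 (0.13) at 100 mGy, and at 1 Gy the range was from ATF3 (0.16) to GADD45A (-0.21) with 0 called.

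Lists of other responses and of the cell cycle were counted the same way, and each list of the 10 had a median log2 ratio between -0.07 and 0.10 at 1 Gy. The counts stand beside 53% lower and 15.4% higher of all genes at 10 mGy, 58.9% and 14.0% at 100 mGy, and 0.846% and 1.28% at 1 Gy. Of 15 genes of the ATF6 and XBP1 branches of the unfolded protein response, 3 were higher and 8 lower at 10 mGy (SEC61B at 0.58, HYOU1 at -0.83), 3 and 11 at 100 mGy (SEC61B at 0.66, EDEM1 at -1.09) and 0 at 1 Gy (XBP1 at 0.13, DNAJC3 at -0.18). Of 14 p53 targets, 2 were higher and 8 lower at 10 mGy and 2 and 10 at 100 mGy, with TP53I3 highest (0.66 and 0.46) and MDM2 lowest (-1.05 and -1.03), and 1 was higher at 1 Gy, POLH (0.26), with MDM2 lowest (-0.11). MDM2, among the 3 genes most like DDIT3 between cells, was thus low at both low doses, also at 10 mGy, where DDIT3 was highest. CDKN1A, the first of those 3, was itself highest at 10 mGy. It was at 28.5, 31.6, 24.7 and 28.9 CPM in the control, 10 mGy, 100 mGy and 1 Gy libraries. The list medians were -0.31 and -0.41 for the ATF6 and XBP1 branches and -0.31 and -0.42 for the p53 targets at 10 and 100 mGy.

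The background for the last 3 lists was again 53% and 58.9% of all genes lower and 15.4% and 14.0% higher at 10 and 100 mGy, and 1.28% higher and 0.846% lower at 1 Gy. Of 13 immediate early genes, 1 was higher (EGR1, at 0.38 and 0.42) and 9 and 12 lower at 10 and 100 mGy, down to FOSB (-1.26) and FOS (-1.77), and 2 were higher at 1 Gy, from FOSB (0.45) to JUN (-0.10). Of 15 S phase genes, 3 were higher and 4 lower at 10 mGy (PCNA at 0.48, UHRF1 at -0.66), 2 and 7 at 100 mGy (GINS2 at 0.28, UHRF1 at -0.88) and 0 at 1 Gy (RRM2 at 0.15, PCNA at -0.07). Of 15 G2/M genes, 2 were higher and 9 lower at 10 mGy, 2 and 6 at 100 mGy, with UBE2C highest (0.65 and 0.86) and MKI67 lowest (-1.02 and -0.95), and 1 was higher at 1 Gy, CDK1 (0.27), with CENPE lowest (-0.21). The list medians were -0.39 and -0.52 for the immediate early genes, -0.07 and -0.17 for the S phase genes and -0.37 and -0.21 for the G2/M genes at 10 and 100 mGy.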

How the data were processed

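Per the files, the authors deposited raw counts of UMIs for every gene in every barcode. The header of the files names Cell Ranger 7.0.1, and the submitters' processing notes name Cell Ranger, STAR and GRCh37. For the annotation, the use of strand and the counting of intronic reads, the answer is not given in the sources used here. Groups were taken from the labels.

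UMIs were summed over every deposited barcode and divided by the library total (CPM). Ratios to the control have exact conditional binomial 95% intervals, levels exact Poisson and shares exact Clopper-Pearson intervals, for counting error only. A gene was called at 1.2-fold or more, over the 8507 genes of at least 10 CPM. For cells, barcodes that were not low-UMI and had 5000 UMIs or more were thinned to 5000 without replacement, which left out 2174, 8953, 5679 and 3980 barcodes from the control to 1 Gy. Doublets were kept and no caller was run. Ratios and their intervals were checked on simulated Poisson counts, which hold counting error only. Correlations were checked on simulated cells. Recovery of a correlation was required only at a mean UMI count above that of each of the 10 genes in thinned cells, so that check does not cover these genes. Exonic lengths, as the union of all exons annotated for a gene, and loci came from GENCODE 29 on GRCh38. Promoters came from RefSeq on GRCh38.p14, and neither source gave coordinates to the counts.

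The genes and lists were chosen with earlier results of these data known. Named were all 10 genes, the highest and lowest gene above the floor of each list at each dose, the 3 genes of highest mean r with each of the 10 and the 10 of highest mean r with their score (mean z of ln(1 + UMIs)). MARS, MBD6, AC022506.1, AC079781.5, DDIT4-AS1, the 4 eIF2alpha kinases, and CDKN1A as a split and by its levels, were named after their values were seen. Python 3.11.15, numpy 2.4.6, scipy 1.17.1 and pandas 2.3.3 were used.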

Additional observations from a re-analysis of the deposited data

How the results depend on the processing

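No paired analysis was possible because each dose has 1 library. With median ratio scaling, 2 of the 7 genes were at least 1.2-fold lower at 10 mGy (27.3% of all genes) and 3 at 100 mGy (29.0%), in place of 5, and the log2 ratio changed sign for PPP1R15A (0.024), PHGDH (0.18) and CHAC1 (0.24) at 10 mGy and for DDIT4 (0.10), PHGDH (0.21) and TRIB3 (0.19) at 100 mGy. With unscaled UMIs averaged over barcodes, 0 genes were higher at 100 mGy (1.02% of all genes) and 6 were lower at 1 Gy, and the log2 ratio changed sign for TRIB3 at 10 mGy (-0.28), for DDIT3 (-0.16) and CHAC1 (-0.61) at 100 mGy and for ATF4 (-0.32), DDIT3 (-0.33), TRIB3 (-0.40), SESN2 (-0.23), PSAT1 (-0.30) and CHAC1 (-0.095) at 1 Gy. In that setting 97.2% of all genes were at least 1.2-fold lower at 1 Gy. Other sign changes were within 0.03 of 0, for CHAC1 at 10 mGy in 3 settings and DDIT4 at 1 Gy when thinned. With a threshold of 1.5-fold, 2 genes were lower at 10 mGy (25.8% of all genes), and 3 were lower (33.9%) and 0 higher (5.04%) at 100 mGy. At 1 Gy 1 gene was higher without low-UMI barcodes (SESN2, against 1.27% of all genes) and 1 with a floor of 1 CPM (CHAC1, against 3.14%). The cause was not tested beyond what these settings change by construction. DDIT3 at 10 mGy was called higher in each of the 10 alternatives, with log2 ratios of 0.94 to 1.32 with scaling, and ATF4 and SESN2 were called lower at both low doses in each. No alternative gave a pair with r of at least 0.1 in every library. There are no replicates, so the spread between samples of a dose is unknown for each level. ASNS had 52 to 88 UMIs and CHAC1 218 to 285 UMIs in a library.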
